A study of Mus musculus with 106 samples.

Results

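The genes described here are 10 that encode subunits of Polycomb repressive complex 2 (PRC2) in the mouse: Ezh1, Ezh2, Eed, Suz12, Jarid2, Mtf2, Phf1, Phf19, Rbbp4 and Rbbp7. They were chosen by name, as known subunits, with earlier results of these data known. All 10 are among the 55401 mouse genes of the count table, of which 21897 are protein-coding.

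The study profiled brain cell types of mice that carry the mutant huntingtin gene of Huntington's disease (HD), by pulling down tagged ribosomes from 1 cell type at a time and sequencing the attached RNA (the IP libraries), beside total RNA of the same tissue. HD mice are Hdh Q7/Q200 and control mice Hdh Q7/Q7, on a 129S4 background, at about 9 months of age. In 3 lines the mice are heterozygous for the RiboTag allele (Rpl22-HA) and for a Cre driver: Gad2-IRES-Cre for inhibitory neurons, PV-IRES-Cre for parvalbumin neurons and vGluT2-IRES-Cre for excitatory neurons with vesicular glutamate transporter 2. The allele and breeding of the SST line, for somatostatin neurons, are not described in the study's methods. Gad2 and vGluT2 neurons were taken from the cerebrum (without olfactory bulb) and from the cerebellum, PV and SST neurons from the cerebrum.

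There are 67 IP and 39 total RNA libraries, from 45 mice. IP groups hold 6 control and 6 HD libraries for Gad2 in each region and for vGluT2 in the cerebrum, 5 and 6 for vGluT2 in the cerebellum, 6 and 5 for PV, and 5 and 4 for SST. Total RNA groups hold 3 and 3, except 4 and 4 for the vGluT2 line in the cerebellum and 4 and 3 for the SST line. Each PV library pools 2 IPs of 1 homogenate, and 3 HD IP libraries were sequenced again with longer reads. Mouse gene counts per library run from 21905221 to 107753586, with a median of 35866726, and group medians run from 29017527 (HD Gad2 cerebellar total RNA) to 45464390 (HD vGluT2 cerebellar total RNA).

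PRC2 places methyl groups on lysine 27 of histone H3, a mark of silenced genes. Ezh2 or its paralog Ezh1 is the enzyme, Eed binds the finished mark and stimulates it, Suz12 is the scaffold, and Rbbp4 and Rbbp7 are histone chaperones shared with other complexes. Phf1, Mtf2 or Phf19 (the Polycomb-like proteins) define the form called PRC2.1, Jarid2 with Aebp2 the form called PRC2.2; in neurons that no longer divide, Ezh1 is known to take over from Ezh2, and loss of PRC2 from adult striatal neurons is known to release developmental genes.

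In the GRCm38 build the enzymes lie at chr11:101191115-101226463 (Ezh1, ENSMUSG00000006920.14, minus strand) and chr6:47530139-47595341 (Ezh2, ENSMUSG00000029687.16, minus). The rest of the core is Eed at chr7:89954654-89980983 (ENSMUSG00000030619.10, minus) and Suz12 at chr11:79993106-80034123 (ENSMUSG00000017548.15, plus). The chaperones are Rbbp4 at chr4:129307100-129335370 (ENSMUSG00000057236.10, minus) and Rbbp7 at chrX:162760402-162779092 (ENSMUSG00000031353.13, plus). The Polycomb-like genes are Mtf2 at chr5:108065674-108109004 (ENSMUSG00000029267.17, plus), Phf1 at chr17:26933052-26937908 (ENSMUSG00000024193.8, plus) and Phf19 at chr2:34893757-34914026 (ENSMUSG00000026873.9, minus), and Jarid2 lies at chr13:44729474-44921643 (ENSMUSG00000038518.15, plus). No 100-base stretch of the exons of 9 members recurs in another listed gene. Rbbp7 shares 40 of 3004 such stretches (1.33%) with Gm6382, so a small part of its reads cannot be assigned with certainty.

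Levels are in CPM, gene counts scaled to a common library size with TMM factors (trimmed mean of M values) over all libraries. A fold change is given as log2 with its standard error (SE). A gene is said to have risen, fallen or differed where its adjusted p is 0.05 or less in the quasi-likelihood test of edgeR, adjusted by Benjamini-Hochberg over all genes tested. Genes tested are protein-coding and average more than 10 counts over the libraries of that comparison. All 10 members passed that filter in every comparison, except that Phf19 did not in HD against control of the cerebral vGluT2 IP. A lower level in a bulk library can come from fewer cells or from less RNA per cell, and the 2 cannot be told apart here.

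Some libraries stand apart in ways that touch these genes. For each library, the rank correlation over 13038 genes was taken between a gene's GC content and how far the gene lies from the mean of libraries of the same line, region and preparation (the GC correlation below). In cerebellar total RNA of the vGluT2 line it was -0.713, -0.633, -0.291 and -0.758 in the 4 controls, against 0.661, 0.496, 0.692 and 0.414 in the 4 HD libraries. The genotypes do not overlap there. Nor do they in the same correlation with gene length (0.319 to 0.424 in controls, -0.516 to -0.179 in HD) or in the share of counts outside protein-coding genes (3.83 to 6.54% and 7.0 to 9.12%), so HD and these differences between libraries cannot be told apart in that line. The share outside protein-coding genes also separates the genotypes in total RNA of the PV line (6.19 to 7.66% in controls, 9.72 to 13.1% in HD) and of the SST line (7.92 to 9.75% and 5.96 to 7.76%). In cerebellar total RNA of the Gad2 line the GC correlation was 0.448, -0.644 and 0.413 in controls and 0.247, 0.760 and -0.793 in HD, with overlap. In the cerebral Gad2 IP the median GC correlation was -0.464 in controls and 0.367 in HD.

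The members are spread along that same axis. Mtf2 (38.2% GC in its longest protein-coding transcript), Suz12 (41.6%), Rbbp4 (43.8%), Ezh2 (44.4%), Rbbp7 (44.7%), Eed (47.8%) and Jarid2 (49.1%) lie under the median gene (50.4%), and Ezh1 (51.2%), Phf19 (53.9%) and Phf1 (60%) above it. A member's log2 level and the GC correlation were each taken as deviations from the mean of the same genotype, line, region and preparation. Differences between HD and control therefore do not enter. Over the 39 total RNA libraries, their Pearson r was -0.95 for Suz12, -0.91 for Eed, -0.87 for Mtf2, -0.86 for Rbbp7, -0.81 for Jarid2 and -0.78 for Ezh2. It was 0.90 for Phf1, 0.51 for Phf19, 0.24 for Ezh1 and -0.18 for Rbbp4. Over the 67 IP libraries it was -0.94 for Suz12, -0.92 for Mtf2 and 0.78 for Phf1, and 0.04 for both Ezh1 and Phf19. Between these lie Rbbp7 (-0.72), Eed (-0.71), Jarid2 (-0.51), Rbbp4 (-0.50) and Ezh2 (-0.38). Suz12 and Mtf2 thus vary together from library to library (r = 0.91 over IP and 0.92 over total RNA libraries), and Phf1 against Suz12 (-0.70 and -0.86). These are descriptions: both values of a pair come from 1 library and share its depth and base composition.

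Other libraries differ in what else they hold. Control Gad2 cerebellar IP replicate 5 has 22.6% of its counts in genes that are not protein-coding, and the re-sequenced HD vGluT2 cerebral IP library re1 has 18.1%. Of the SST control IP libraries, 2 come from mice with the BR code of the HD libraries and 3 from mice with a Z code. PV IP libraries differ in markers of cerebellar cells. Purkinje cell markers summed to 607 to 4770 CPM in HD (median 716) and 689 to 2150 in controls (median 806). Granule cell markers summed to 45.3 to 457 CPM (median 81.7) and 58.2 to 210 (median 95.1).

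Compared per kb of exon length, the subunits of 1 complex differ widely in transcript level. Over the 67 IP libraries the mean CPM per kb was 48.7 for Rbbp7, higher than 92.6% of 14648 genes, then 15.9 for Phf1, 13.5 for Rbbp4, 10.4 for Ezh1 and 8.62 for Suz12, all above the median gene (4.61). Jarid2 (4.55), Eed (4.29) and Mtf2 (3.6) lie near that median, while Ezh2 (0.335, above 11.7% of genes) and Phf19 (0.0765, above 1.54%) are near the floor. The order depends on the length used. With median transcript lengths Phf1 is at place 7 in place of 2, Rbbp4 at 5 in place of 3, Ezh1 at 2, Suz12 at 3 and Jarid2 at 4, while Rbbp7 stays first and Ezh2 and Phf19 last. Total RNA gives, by exon length, nearly the same order as IP, with 25.8 CPM per kb for Rbbp7, 17.4 for Rbbp4, 14.9 for Phf1, 9.43 for Ezh1, 5.12 for Suz12, 0.278 for Phf19 and 0.268 for Ezh2.

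**Figure D1:**
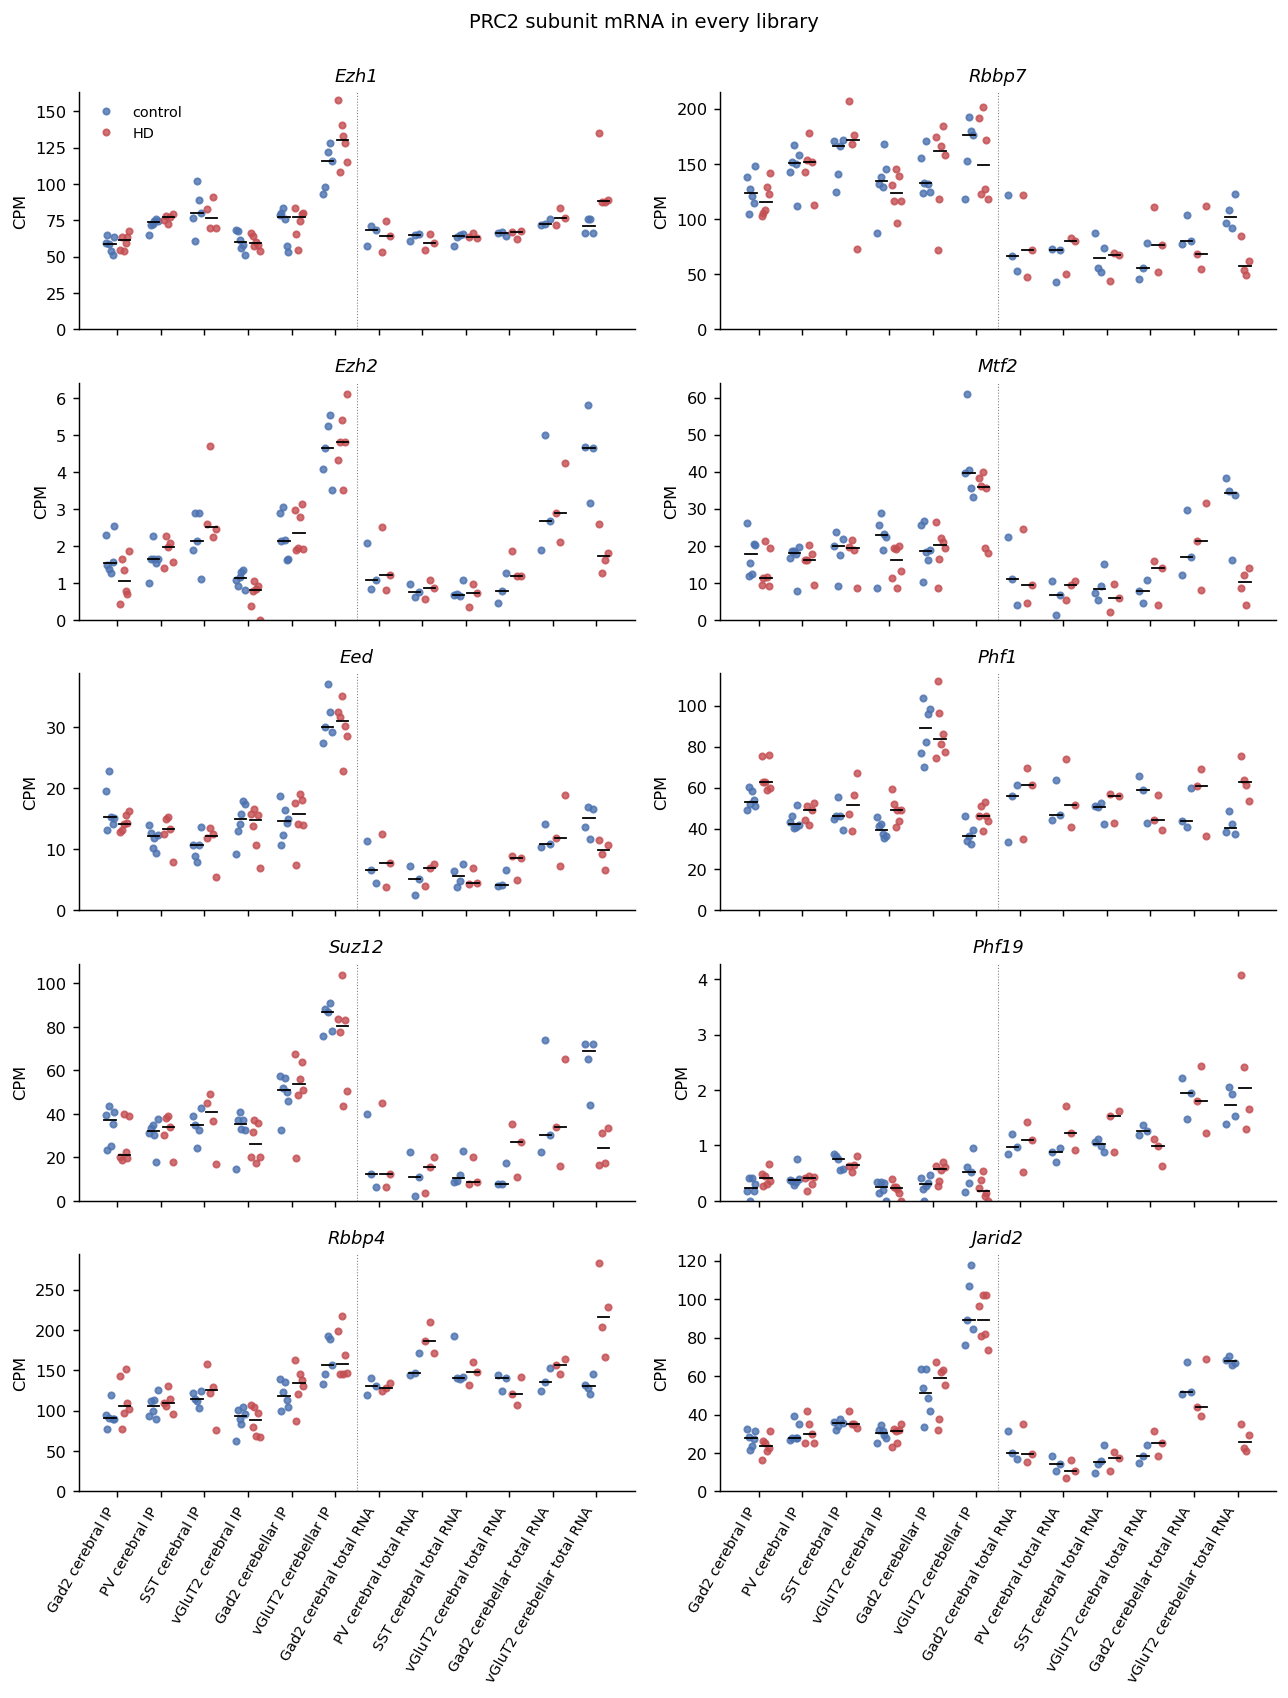
Level of each PRC2 member in every library (CPM), by cell type, region and preparation, with controls in blue and HD in red. Each dot is 1 library and each bar the group median.

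Most markers of the cells an IP is named for were higher in it than in total RNA. Against total RNA, all 3 GABAergic markers (Gad1, Gad2, Slc32a1) were higher in the cerebral Gad2, PV, SST and cerebellar Gad2 IPs, and all 3 lower in both vGluT2 IPs. The PV IP had 4 of 5 parvalbumin-neuron markers higher and the SST IP 5 of 5 somatostatin-neuron markers. The cerebral Gad2 IP had 7 of 7 striatal projection neuron markers higher. The cerebral vGluT2 IP had 3 of 4 vGluT2-neuron markers and 4 of 4 markers of vGluT1 cortical neurons higher. The vGluT2-neuron markers do not set that IP apart: 3 of 4 were also higher in the SST IP and 2 of 4 in the PV IP, and their sum in controls was 273 to 494 CPM in the cerebral vGluT2 IP (Calb2 the most abundant), 263 to 403 in SST and 206 to 350 in PV (Slc17a6 the most abundant), with none under 1 CPM. The cerebellar Gad2 IP carries Purkinje cell markers (6 of 6 higher) and the cerebellar vGluT2 IP granule cell markers (6 of 6 higher). Of 6 astrocyte markers, 6 were lower than in total RNA in the Gad2 and vGluT2 IPs of both regions and 5 in the PV and SST IPs.

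Ezh1, the enzyme of non-dividing cells, was highest in the cerebellar vGluT2 IP, at 92.9, 98.3, 122, 128 and 116 CPM in the 5 control libraries. The next group, the SST IP, had a mean of 81.9 (SD 15.2) against 111 (SD 15.1), a gap beyond either spread. Below it came PV (72.6, SD 3.92), cerebellar Gad2 (71.5, SD 12.9), cerebral vGluT2 (60.5, SD 6.61) and cerebral Gad2 (58.5, SD 5.46), where no neighbours differ beyond their spread. In total RNA the control means lie between 62.8 (SST line, SD 3.99) and 73.4 (Gad2 cerebellum, SD 2.03), and no neighbours differ beyond their spread.

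Ezh2, the enzyme best known from dividing cells, was low everywhere. Its control level was 4.09, 4.64, 5.25, 5.55 and 3.51 CPM in the cerebellar vGluT2 IP (mean 4.61, SD 0.833), and every other control IP library was at 3.05 or less. Cerebellar Gad2 (2.24, SD 0.606), SST (2.18, SD 0.747), cerebral Gad2 (1.76, SD 0.523) and PV (1.63, SD 0.413) do not differ from their neighbours beyond spread, and cerebral vGluT2 (1.1, SD 0.215) lies beyond spread below them. In total RNA the 2 cerebellar groups (4.57, SD 1.09 for the vGluT2 line and 3.19, SD 1.61 for the Gad2 line) lie beyond spread above the 4 cerebral groups (0.767 to 1.32). Of the 7 markers of dividing cells, 4 have a mean under 1 CPM in each of the 6 control IP groups, and Pcna is the most abundant in all of them. Their sum in controls was 69.1 to 111 CPM in the cerebellar vGluT2 IP, 51.9 to 68.2 in cerebellar Gad2 and at most 53.1 in the cerebral IPs, so it is highest in the same group as Ezh2. Their part in its level was not tested.

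Suz12, the scaffold, and Eed, the reader of the mark, were both highest in the cerebellar vGluT2 IP. Suz12 measured 75.8, 88.3, 86.7, 90.9 and 78.0 CPM there in controls (mean 84.0, SD 6.64), beyond spread above cerebellar Gad2 (49.0, SD 9.13). That group in turn lies beyond spread above the 4 cerebral groups (34.7 in Gad2, 34.7 in SST, 32.6 in vGluT2, 30.9 in PV), which do not differ among themselves. Eed measured 27.5, 30, 37.2, 32.5 and 29.2 CPM in the cerebellar vGluT2 IP (mean 31.3, SD 3.79). Its other groups run from 16.7 (cerebral Gad2, SD 3.7) through 14.6 (cerebellar Gad2 and cerebral vGluT2) and 11.8 (PV) to 10.4 (SST, SD 2.2), each within spread of the next. In total RNA both are highest in the vGluT2 cerebellum (63.5 CPM, SD 13.2 for Suz12 and 14.8 CPM, SD 2.55 for Eed). For Suz12 no neighbours in the total RNA order differ beyond spread, and for Eed each cerebellar group lies beyond spread above the next.

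The chaperones Rbbp4 and Rbbp7 are the members with the highest counts. Rbbp4 was 133, 145, 193, 189 and 157 CPM in the control cerebellar vGluT2 IP (mean 163, SD 26.7), beyond spread above cerebellar Gad2 (119), SST (115), PV (105), cerebral Gad2 (93.7) and cerebral vGluT2 (89.3), where neighbours do not differ beyond spread. Rbbp7 ran from 164 (cerebellar vGluT2, SD 29.6) to 126 (cerebral Gad2, SD 15.5) with no neighbours apart beyond spread, the flattest of the 10 profiles between IP groups. In total RNA the means of Rbbp4 lie between 130 and 154 CPM, with no neighbours apart. Those of Rbbp7 lie between 60 and 105 CPM, with the vGluT2 cerebellum beyond spread above the next.

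The 3 Polycomb-like genes, which bind unmethylated CpG-rich DNA through their extended homologous domain, have 3 different profiles. Mtf2 was highest in the cerebellar vGluT2 IP, at 39.6, 61.1, 40.5, 35.5 and 33.3 CPM (mean 42.0, SD 11.1), with 21.3 (cerebral vGluT2) to 16.5 (PV) in the others, none apart from its neighbour. Phf1 was highest in the cerebellar Gad2 IP, with 69.9, 89.3 and 104 CPM as lowest, median and highest of 6 controls (mean 87.9, SD 13.4). It was next in cerebral Gad2 (54.0, SD 4.3), beyond spread below the first and above SST (46.4), PV (43.9), cerebral vGluT2 (39.7) and cerebellar vGluT2 (37.5, SD 5.37). Phf1 is thus the only one of the 10 whose highest IP group is cerebellar Gad2. Phf19 stayed under 1 CPM in every control IP library, with its highest mean in SST (0.708, SD 0.136) and no neighbours apart, and had group means of 0.849 to 1.88 CPM in total RNA.

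Jarid2, the subunit of PRC2.2 that contacts nucleosomes and helps place the complex, measured 76.0, 89.4, 107, 118 and 84.3 CPM in the control cerebellar vGluT2 IP (mean 94.9, SD 17.2). Cerebellar Gad2 (50.9, SD 12.1) lies beyond spread below it and beyond spread above SST (35.1), PV (30.7), cerebral vGluT2 (30) and cerebral Gad2 (27.4), which are within spread of their neighbours. Total RNA has the same step: 67.9 (SD 2.0) and 56.7 (SD 9.43) CPM in the vGluT2 and Gad2 cerebellum against 22.7 or less in the cerebrum.

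Against total tissue RNA, ribosome-bound RNA was higher in Rbbp7 and lower in Phf19 in all 6 IPs, and lower in Rbbp4 in 5 of them, all but cerebellar vGluT2. Whether the difference between IP and total RNA differs between cell types was not tested. The GC correlation is taken inside each preparation, so a difference in base composition between IP and total RNA was not examined. In the PV IP, 7 members were higher (35.7% of all genes were) and 2 lower (35.9%): Ezh1 0.22 (SE 0.0699), Ezh2 1.04 (0.193), Eed 1.09 (0.194), Suz12 1.27 (0.37), Jarid2 1.22 (0.173), Mtf2 1.11 (0.309) and Rbbp7 1.09 (0.134), against Phf19 -1.47 (0.259) and Rbbp4 -0.71 (0.0843). The same 9 genes passed in the SST IP, 7 higher (31.8% of all genes) and 2 lower (31.8%). There Ezh2 was 1.76 (SE 0.281), Suz12 1.46 (0.253), Rbbp7 1.25 (0.179), Mtf2 1.21 (0.29), Jarid2 1.14 (0.153), Eed 0.93 (0.192), Ezh1 0.32 (0.1), Rbbp4 -0.39 (0.123) and Phf19 -0.78 (0.22). The median log2 fold change over the members was 1.07 in PV and 1.04 in SST, beside 0.01 and -0.02 over all genes tested. Phf1 (-0.27, adjusted p = 0.0569 in PV) passed when any 1 of 4 libraries was left out: control PV cerebral IP replicate 6 (-0.30, adjusted p = 0.0319), HD PV cerebral IP replicate 2 (-0.30, 0.0432), control PV cerebral total RNA replicate 2 (-0.32, 0.0403) or HD PV cerebral total RNA replicate 2 (-0.34, 0.0161), with DESeq2 (-0.28, 0.0484) and against the total RNA of all lines of the cerebrum (-0.22, 0.0493); its adjusted p ran from 0.0161 to 0.27 over all alternatives. In SST, Ezh1 did not pass with the mouse as a block (0.24, adjusted p = 0.0508; range over the alternatives 8.06e-06 to 0.0508), nor did Rbbp4 (-0.28, 0.0541) or Rbbp4 without TMM (-0.27, 0.0571; range 0.00348 to 0.0571).

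The cerebral Gad2 IP differed from its total RNA in fewer members. Eed (1.0, SE 0.207) and Rbbp7 (0.60, SE 0.158) were higher, as 19.2% of all genes were, and Phf19 (-1.67, SE 0.368) and Rbbp4 (-0.37, SE 0.126) lower, as 26.8% were; the members' median was 0.14 beside -0.01 over all genes. Neither enzyme passed (Ezh1 -0.16, Ezh2 -0.01). Rbbp4 did not pass without HD Gad2 cerebral IP replicate 1 (-0.27, adjusted p = 0.101), control Gad2 cerebral total RNA replicate 2 (-0.31, 0.0703) or replicate 3 (-0.33, 0.0545), without a filter on low counts (-0.31, 0.0626) or with all gene types (-0.24, 0.143; range over the alternatives 3.67e-05 to 0.143). Suz12 (0.60, adjusted p = 0.185) passed without HD Gad2 cerebral total RNA replicate 1 (1.09, 0.00973) and with the mouse as a block (0.93, 0.033; range 0.0011 to 0.371). Against the total RNA of all lines of the cerebrum 8 members passed in place of 4, with Suz12 at 1.03 (adjusted p = 0.0011), Mtf2 0.81 (0.00499; range 0.00499 to 0.802), Jarid2 0.52 (0.00231; range 0.00231 to 0.753) and Ezh2 0.56 (0.0232; range 0.0232 to 0.996).

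In the cerebral vGluT2 IP 5 members were higher than in total RNA (26.4% of all genes) and 2 lower (27.1%): Eed 1.16 (SE 0.198), Mtf2 0.93 (0.287), Rbbp7 0.88 (0.148), Suz12 0.80 (0.29) and Jarid2 0.45 (0.121), against Phf19 -2.35 (0.514) and Rbbp4 -0.58 (0.105). The members' median was 0.15, beside 0.03 over all genes. Suz12 did not pass without control vGluT2 cerebral IP replicate 2 (0.73, adjusted p = 0.0508), control total RNA replicate 1 (0.63, 0.0874) or 2 (0.58, 0.115) or HD total RNA replicate 2 (0.66, 0.0868), with all gene types (0.74, 0.0507) or with the mouse as a block (1.04, 0.0585; range over the alternatives 0.00479 to 0.115). Mtf2 did not pass without control total RNA replicate 2 (0.71, adjusted p = 0.0503; range 0.00193 to 0.0503). Ezh1 (-0.14, adjusted p = 0.116) passed without control vGluT2 cerebral IP replicate 1 (-0.17, 0.0375) and in 6 of 8 other settings (range 0.0197 to 0.376), and Phf1 (-0.25, adjusted p = 0.149) without HD vGluT2 cerebral total RNA replicate 3 (-0.34, 0.0468) and against the total RNA of all lines (-0.26, 0.0232; range 0.0232 to 0.582).

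In the cerebellar Gad2 IP the core subunits other than Ezh2 did not pass. Phf1 (0.67, SE 0.162) and Rbbp7 (0.69, SE 0.15) were higher than in total RNA (29% of all genes were), and Phf19 (-2.38, SE 0.34), Ezh2 (-0.49, SE 0.204) and Rbbp4 (-0.33, SE 0.0993) lower (31.6%), with a median of -0.14 beside 0.00 over all genes. Phf1 passed here as higher and in the cerebellar vGluT2 IP as lower, and Ezh2 passed here as lower and in the PV, SST and cerebellar vGluT2 IPs as higher. That call of Ezh2 (adjusted p = 0.0428) was lost without 8 libraries in turn: control Gad2 cerebellar IP replicate 1 (-0.45, 0.0659), 2 (-0.48, 0.0559) or 6 (-0.51, 0.053), HD IP replicate 1 (-0.50, 0.0535) or 2 (-0.48, 0.0638), control total RNA replicate 2 (-0.32, 0.187) and HD total RNA replicate 1 (-0.55, 0.0508) or 3 (-0.42, 0.118). It was also lost without a filter (-0.47, 0.0671), with all gene types (-0.46, 0.0623), with the total RNA of both lines (-0.44, 0.056) and with the mouse as a block (-0.18, 0.483; range over the alternatives 0.0148 to 0.483). With the mouse as a block Rbbp4 was -0.16 (adjusted p = 0.145; range 0.000686 to 0.145) and Suz12 passed at 0.65 (0.0478; range 0.0478 to 0.778).

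In the cerebellar vGluT2 IP 7 members were higher than in total RNA (34.1% of all genes) and 2 lower (31.5%). Eed was 1.32 (SE 0.13), Jarid2 1.05 (0.178), Mtf2 1.01 (0.254), Suz12 0.94 (0.202), Rbbp7 0.93 (0.145), Ezh2 0.65 (0.234) and Ezh1 0.46 (0.108), against Phf19 -2.65 (0.448) and Phf1 -0.35 (0.112). The median over the members was 0.79, beside 0.07 over all genes tested. These values pool both genotypes, and the total RNA of this line is the set in which HD and control libraries stand apart. Mean levels of Ezh2 in IP and total RNA were 4.61 and 4.57 CPM in controls, close together, and 4.83 and 1.82 in HD. They were 94.9 and 67.9 in controls and 89.4 and 27 in HD for Jarid2, 84.0 and 63.5 and then 73.8 and 24.6 for Suz12, and 42.0 and 30.8 and then 31.2 and 9.67 for Mtf2. For Rbbp4, which did not pass, they were 163 and 132 in controls and 170 and 221 in HD, in opposite directions. Controls alone were not tested, nor was a difference between the genotypes. Ezh2 did not pass without HD vGluT2 cerebellar total RNA replicate 2 (0.51, adjusted p = 0.058), 3 (0.55, 0.0563) or 4 (0.56, 0.0537), or with the mouse as a block (0.82, 0.0514; range over the alternatives 0.00568 to 0.058).

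Between the 2 cerebellar cell types most of the complex differed: 7 members were higher in the vGluT2 than in the Gad2 IP (34.5% of all genes were) and 1 lower (34.8%). Eed was 1.03 (SE 0.106), Ezh2 0.99 (0.145), Mtf2 0.87 (0.167), Jarid2 0.81 (0.106), Ezh1 0.72 (0.0977), Suz12 0.62 (0.137) and Rbbp4 0.39 (0.0884). Phf1 went the other way, at -1.09 (SE 0.111), while Phf19 (-0.22) and Rbbp7 (0.14) did not pass. The median was 0.67 over the members and 0.00 over all genes tested, and each of the 8 calls held in all 7 other settings and all 23 fits with 1 library left out. Granule cell markers were higher in the same comparison (6 of 6, summed level 4880 to 6930 CPM in vGluT2 and 572 to 1140 in Gad2 controls, Zic1 the most abundant). Purkinje cell markers were lower (6 of 6, 762 to 1740 against 14400 to 21100, Itpr1 the most abundant). No marker of either list had a mean under 1 CPM, and their part in the result was not tested.

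Between the cerebral Gad2 and vGluT2 neurons 2 of the 10 members differed. Jarid2 was higher in vGluT2 than in Gad2 neurons (0.25, SE 0.0951, adjusted p = 0.0369; 19.9% of all genes were higher) and Phf1 lower (-0.42, SE 0.0773, adjusted p = 8.13e-05; 21.7%), with a median of -0.08 beside -0.01 over all genes. The Jarid2 call did not hold without control vGluT2 replicate 3 (0.24, adjusted p = 0.0562), HD vGluT2 replicate 2 (0.24, 0.0577), 3 (0.24, 0.0524), 5 (0.24, 0.0618) or re1 (0.20, 0.0705), control Gad2 replicate 5 (0.23, 0.0609) or 6 (0.23, 0.0653), or HD Gad2 replicate 3 (0.20, 0.0684), 5 (0.23, 0.0667) or 6 (0.24, 0.0624). Control vGluT2 replicate 4 left out gave 0.25 at an adjusted p just over the threshold (0.05 when rounded). Nor did it hold without TMM (0.19, 0.132) or in control mice only (0.14, 0.348; range over the alternatives 0.0202 to 0.348), while Phf1 passed in all of these. Ezh2 (-0.72, SE 0.356, adjusted p = 0.108) passed without HD vGluT2 replicate re1 (-0.60, 0.0267; range 0.0267 to 0.173), and Rbbp4 (-0.21, adjusted p = 0.108) without TMM (-0.26, 0.0325; range 0.0325 to 0.748).

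PV and SST neurons differed in 2 members, both lower in PV (20% of all genes were, and 18.3% higher). Ezh2 was -0.54 (SE 0.186, adjusted p = 0.0251) and Phf19 -0.82 (SE 0.215, adjusted p = 0.00487), with a median of -0.13 over the members and -0.03 over all genes. Neither passed in control mice only (Ezh2 -0.40, adjusted p = 0.319; Phf19 -0.74, 0.136; range for Phf19 0.000889 to 0.136). Ezh2 did not pass without control SST replicate 1 (-0.49, adjusted p = 0.0508) or 4 (-0.49, 0.0502) or HD SST replicate 2 (-0.41, 0.0742; range 0.00638 to 0.319), the library with the highest Ezh2 of its group (4.7 CPM against 2.23 to 2.58). Jarid2 (-0.20, adjusted p = 0.0899) passed without control PV replicate 1 (-0.25, 0.0336) or HD PV replicate 3 (-0.26, 0.0176) and without TMM (-0.31, 0.00981; range 0.00981 to 0.302). Rbbp4 (-0.13, adjusted p = 0.273) passed without HD SST replicate 4 (-0.19, 0.0439) and without TMM (-0.23, 0.0488; range 0.0439 to 0.541), and Ezh1 (-0.12, adjusted p = 0.275) without TMM (-0.22, 0.0344; range 0.0344 to 0.544). Some markers of cells other than neurons were lower in PV too, among them 5 of 6 for microglia (summed level 46.2 to 64.2 CPM in PV and 63.5 to 103 in SST controls, Csf1r and Cx3cr1 the most abundant, 1 gene under 1 CPM in PV), 5 of 5 for endothelial and mural cells (39.8 to 57.6 and 52.8 to 84.0, Vtn, none under 1 CPM) and 3 of 6 for astrocytes (312 to 419 and 348 to 619, Slc1a3, none under 1 CPM). Oligodendrocyte marker sums were 1670 to 2730 CPM in PV and 2930 to 4880 in SST controls, without overlap. Those of oligodendrocyte precursor markers were 56.9 to 84.9 and 76.5 to 122, with overlap. The part of any of these markers in the calls of Ezh2 and Phf19 was not tested.

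In vGluT2 neurons most of the complex was higher in the cerebellum. There 7 members were higher than in the cerebrum and 0 lower by edgeR, while DESeq2 called the same 7 and Phf1 as lower (by edgeR 35.3% of all genes were higher and 37.2% lower): Ezh2 2.39 (SE 0.34), Jarid2 1.5 (0.0821), Suz12 1.29 (0.135), Eed 1.03 (0.113), Mtf2 0.89 (0.156), Ezh1 0.88 (0.0836) and Rbbp4 0.80 (0.0905). With 8 members at an unadjusted p under 0.05 by edgeR, the median was 0.88, beside -0.01 over all genes. Phf19 (0.53), Rbbp7 (0.19, adjusted p = 0.0785) and Phf1 (-0.20, adjusted p = 0.06) did not pass. Phf1 passed without control vGluT2 cerebellar IP replicate 1 (-0.23, 0.0301), HD cerebellar IP replicate 4 (-0.21, 0.0428), control cerebral IP replicate 5 (-0.22, 0.0448) or HD cerebral IP replicate 3 (-0.23, 0.0284), with DESeq2 (-0.20, 0.0371), with its size factors (-0.20, 0.0405) and with the mouse as a block (-0.21, 0.0131; range over the alternatives 0.0131 to 0.214). Rbbp7 passed without control cerebellar IP replicate 1 (0.24, 0.0236), HD cerebellar IP replicate 2 (0.22, 0.041) or 4 (0.23, 0.0466) or control cerebral IP replicate 5 (0.22, 0.0462), without TMM (0.23, 0.0345), with all gene types (0.22, 0.0464) and with the mouse as a block (0.20, 0.00572; range 0.00572 to 0.277). Of the 12 mice, 11 gave libraries of both regions. The 2 IPs differ in cell type markers. Granule cell markers summed to 66.1 to 215 CPM in cerebral and 4880 to 6930 in cerebellar vGluT2 controls. Those of vGluT1 cortical neurons summed to 2060 to 2730 and 1110 to 1660. Their part in the result was not tested.

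In Gad2 neurons 4 members were higher in the cerebellum and none lower by edgeR or DESeq2, with 5 at an unadjusted p under 0.05 by edgeR (30.6% of all genes were higher and 34.4% lower). Jarid2 was 0.92 (SE 0.114), Ezh2 0.64 (0.214), Suz12 0.63 (0.16) and Phf1 0.48 (0.0992), with a median of 0.20 over the members and -0.02 over all genes. Ezh2 did not pass in control mice only (0.31, adjusted p = 0.378; range over the alternatives 0.00269 to 0.378). Without HD Gad2 cerebellar IP replicate 4, 7 members passed, the others being Ezh1 (0.21, adjusted p = 0.0386), Rbbp4 (0.24, 0.0259) and Rbbp7 (0.21, 0.0205; range 0.0205 to 0.427). Ezh1 (0.19, adjusted p = 0.0533) passed too without control cerebellar IP replicate 1 (0.22, 0.0289) or 2 (0.25, 0.0107), HD cerebellar IP replicate 1 (0.22, 0.0223), control cerebral IP replicate 4 (0.21, 0.037) or 5 (0.22, 0.0337), or HD cerebral IP replicate 2 (0.21, 0.0474), 4 (0.21, 0.0417) or 5 (0.21, 0.0465), and in 6 of 8 other settings, with the mouse as a block at 0.18 (0.0339; range 0.0107 to 0.16). Rbbp4 (0.18, adjusted p = 0.113) passed too without HD cerebral IP replicate 3 (0.23, 0.0427) or 5 (0.26, 0.0196), and in 5 of 8 other settings, with the mouse as a block at 0.19 (0.0151; range 0.0151 to 0.187). All 12 mice gave libraries of both regions. Purkinje cell markers summed to 602 to 1180 CPM in cerebral and 14400 to 21100 in cerebellar Gad2 controls. Striatal projection neuron markers summed to 4900 to 6480 and 693 to 1410. Their part in the result was not tested.

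In total RNA 8 members were higher in the cerebellum and none lower by edgeR or DESeq2, with 8 at an unadjusted p under 0.05 by edgeR (25.7% of all genes were higher and 29.1% lower). Ezh2 was 1.30 (SE 0.267), Suz12 1.11 (0.37), Jarid2 1.11 (0.192), Phf19 0.89 (0.19), Eed 0.82 (0.198), Mtf2 0.82 (0.349), Ezh1 0.30 (0.0856) and Rbbp4 0.30 (0.102), with a median of 0.82 beside 0.02 over all genes. In control mice only, Ezh1 was 0.14 (adjusted p = 0.19; range over the alternatives 0.00175 to 0.19) and Rbbp4 0.01 (adjusted p = 0.929; range 0.0079 to 0.929). With the mouse as a block Ezh1 was 0.23 (adjusted p = 0.0912) and Rbbp4 0.26 (0.209).

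The Mtf2 call in total RNA between regions (adjusted p = 0.0496) did not hold without any 1 of 15 of the 26 libraries. In the cerebellum these are control Gad2 replicate 2 (0.79, adjusted p = 0.0673), control vGluT2 replicate 1 (0.76, 0.0612), 2 (0.78, 0.0594) and 4 (0.78, 0.0577), HD Gad2 replicate 1 (0.81, 0.0617) and 3 (0.72, 0.0937), and HD vGluT2 replicate 4 (0.84, 0.0546). In the cerebrum they are control Gad2 replicate 2 (0.78, 0.0759) and 3 (0.71, 0.0828), control vGluT2 replicate 1 (0.76, 0.0853), 2 (0.71, 0.0931) and 3 (0.80, 0.074), HD Gad2 replicate 2 (0.82, 0.0541) and 3 (0.76, 0.0724), and HD vGluT2 replicate 2 (0.75, 0.0794). With all gene types Mtf2 was 0.79 (adjusted p = 0.0572; range over the alternatives 0.00202 to 0.0937).

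Between the paralogous enzymes the balance lies far on the side of Ezh1. The log2 ratio of Ezh1 to Ezh2, in CPM per kb, was above 0 in all 105 libraries in which Ezh2 was detected, with a mean of 5.14 (SD 0.66, 3.74 to 7.33) over 66 IP libraries and 5.49 (SD 0.97) over 39 total RNA libraries. That mean IP ratio is 35.3-fold; 1 HD vGluT2 cerebral IP library with Ezh2 at 0 is left out. Among control IP groups the ratio was lowest in cerebellar vGluT2 (4.45, SD 0.25) and highest in cerebral vGluT2 (5.64, SD 0.32), and their libraries do not overlap (4.25 to 4.89 and 5.28 to 6.06). The lowest of all groups was control vGluT2 cerebellar total RNA (3.83, SD 0.40), against 5.65 (SD 0.22) in HD. In that set the genotypes also stand apart in GC correlation, and the difference in ratio was not tested. In cerebellar total RNA of the Gad2 line the ratio was 4.49 (SD 0.71) in controls and 4.55 (SD 0.57) in HD. In the cerebellar vGluT2 IP of HD mice it was 4.61 (SD 0.39).

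Between the chaperones the balance differs by preparation. The log2 ratio of Rbbp4 to Rbbp7 was under 0 in all 67 IP libraries (mean -1.87, SD 0.29) and averaged -0.53 (SD 0.54) in total RNA. The highest group is HD vGluT2 cerebellar total RNA (mean 0.24, SD 0.09), whose 4 controls average -1.25 (SD 0.10). There too the genotypes stand apart in GC correlation, and the difference was not tested. In cerebellar total RNA of the Gad2 line the ratio averaged -0.93 (SD 0.28) in controls and -0.54 (SD 0.45) in HD. The size of the ratio depends on the length used: over the IP libraries it is -1.13 with median transcript lengths and -1.26 with the longest protein-coding transcript. The same shift applies to every total RNA library, so on which side of 0 total RNA lies depends on the length used, and differences between groups do not.

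The promoters of the 2 enzymes are shown because the 2 genes are the alternative enzymes of the complex. The 300 bases run from 250 before to 50 after the RefSeq start of each gene, which for Ezh2 lies inside the gene span given above, read 5' to 3' on the minus strand, from RefSeq on GRCm38.p6: chr11:101226414-101226713 for Ezh1 and chr6:47594981-47595280 for Ezh2. Ezh1 holds 23 CpG at 59.3% GC and Ezh2 31 CpG at 64.3% GC. Capitals mark a match to TTTGGCGC, a form of the E2F site known from cell-cycle genes, searched on both strands (reverse complement GCGCCAAA). It is present in 169 of 32851 promoters (0.514%) and, among the 10 members, in Ezh2 only. The form TTTCGCGC (reverse complement GCGCGAAA) is in 0.323% of promoters and in no member. A match is a description of letters, not of binding.
Ezh1: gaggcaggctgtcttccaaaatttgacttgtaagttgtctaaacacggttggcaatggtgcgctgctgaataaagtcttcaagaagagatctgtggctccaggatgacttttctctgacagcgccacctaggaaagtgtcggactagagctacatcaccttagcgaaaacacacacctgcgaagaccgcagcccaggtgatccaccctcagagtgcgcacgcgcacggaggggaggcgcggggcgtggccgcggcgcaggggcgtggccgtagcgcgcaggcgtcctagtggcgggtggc
Ezh2: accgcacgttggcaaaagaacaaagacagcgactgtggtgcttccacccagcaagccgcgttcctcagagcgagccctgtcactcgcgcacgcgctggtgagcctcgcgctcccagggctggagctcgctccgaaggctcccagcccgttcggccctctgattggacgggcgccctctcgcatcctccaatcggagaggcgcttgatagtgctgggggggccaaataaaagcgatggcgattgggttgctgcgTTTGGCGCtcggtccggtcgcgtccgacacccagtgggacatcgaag

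In the ribosome-bound RNA of the 6 cell types no PRC2 member passed the test of HD against control. By edgeR and by DESeq2 alike, 0 members passed in each of the 6 IPs (DESeq2 gave no adjusted p for Ezh2 in the cerebral vGluT2 IP), where edgeR called 0.0279% of all genes (cerebral Gad2), 0.0408% (PV), 0% (SST), 0% (cerebral vGluT2), 0.0142% (cerebellar Gad2) and 2.09% (cerebellar vGluT2). By edgeR, the members at an unadjusted p under 0.05 number 1, 0, 0, 1, 0 and 2 in that order. The median log2 fold changes of the members were -0.15, 0.03, 0.03, -0.05, -0.04 and -0.01, beside medians of -0.01 to 0.01 over all genes tested. The 6 comparisons share no control libraries, though the Gad2 IPs of both regions come from the same 12 mice and 11 of 12 vGluT2 mice gave IPs of both regions.

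**Figure D2:**
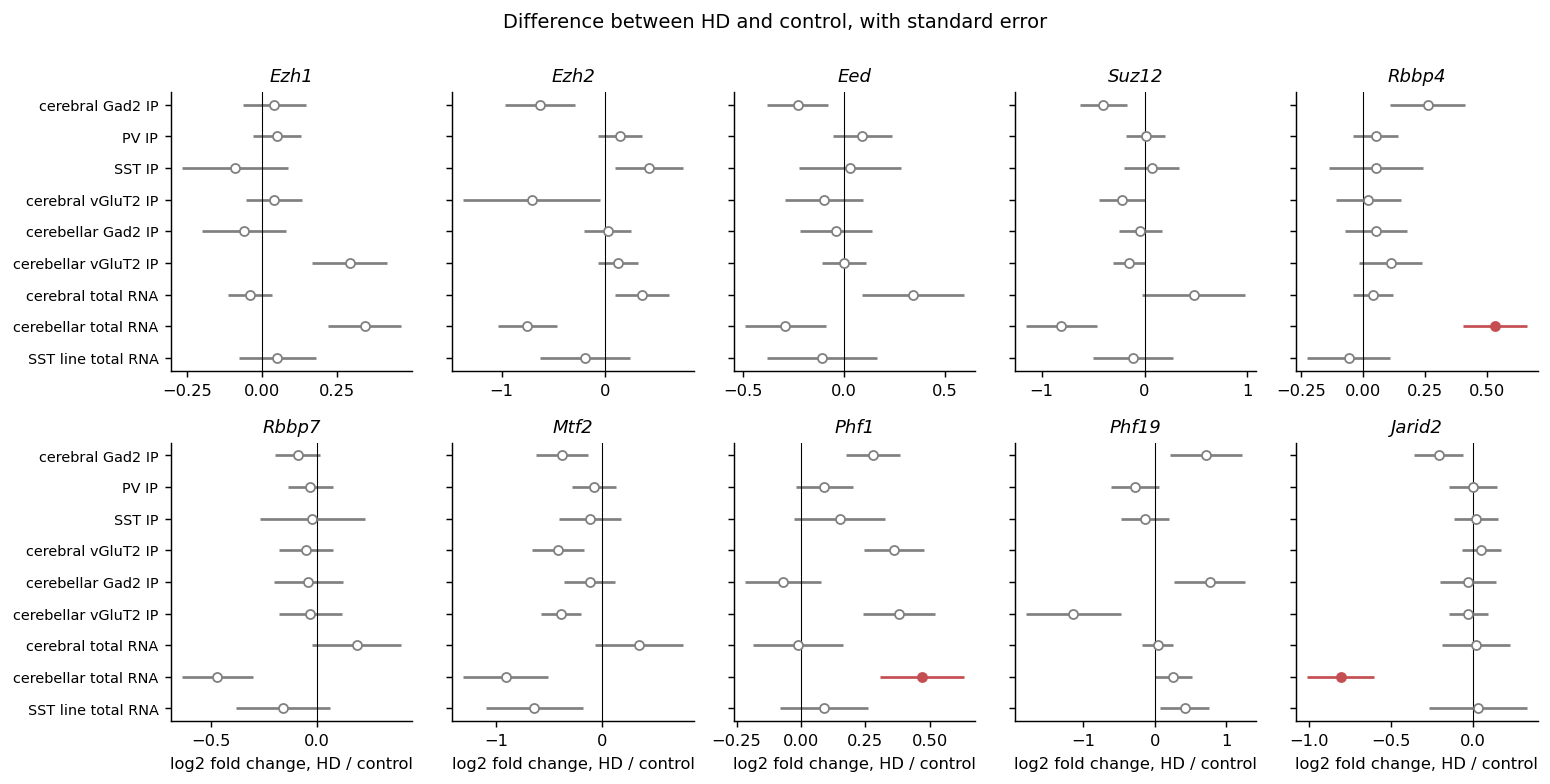
Log2 fold change of each PRC2 member in HD against control, for 6 IPs and 3 sets of total RNA, with bars of 1 standard error on each side. Filled symbols passed edgeR's quasi-likelihood test at an adjusted p of 0.05 or less, open symbols did not.

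Phf1 is the member with the smallest unadjusted p in 3 of these 6 comparisons. In the cerebral Gad2 IP its lowest, median and highest levels were 58.9, 62.7 and 76.0 CPM in HD and 49.0, 52.9 and 60.1 in controls, with overlap at the edge (0.28, SE 0.105, adjusted p = 0.536). In the cerebral vGluT2 IP it was 0.36 (SE 0.117, adjusted p = 0.65) and in the cerebellar vGluT2 IP 0.38 (SE 0.139, adjusted p = 0.212), with 38.7, 46.1 and 53.2 CPM in HD against 45.9, 33.7, 36.2, 32.4 and 39.2 in the 5 controls. HD and control libraries overlap there too. In PV (0.09), SST (0.15) and cerebellar Gad2 (-0.07) it was nearer to 0. Phf1 varies with the GC correlation over the IP libraries (r = 0.78). The median GC correlation was -0.464 in controls and 0.367 in HD in the cerebral Gad2 IP. It was -0.483 and 0.0107 in the cerebral vGluT2 IP, and -0.106 and -0.0705 in the cerebellar vGluT2 IP. With the GC correlation as a covariate Phf1 did not pass in any IP either.

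Among the core subunits, Ezh1 in the cerebellar vGluT2 IP was 108, 131 and 158 CPM in HD (lowest, median, highest) and 92.9, 98.3, 122, 128 and 116 in controls. That gives 0.29 (SE 0.124, adjusted p = 0.282), with overlap. Elsewhere Ezh1 lay between -0.09 and 0.05. Ezh2 was -0.63 (SE 0.342) and -0.71 (SE 0.664) in cerebral Gad2 and vGluT2 and 0.43 (SE 0.328) in SST, with adjusted p of 0.54, 0.75 and 1, and its errors are the largest of the core. Without HD SST replicate 2 the SST value was 0.13. Without HD vGluT2 replicate re1, which has Ezh2 at 0 and the 18.1% of counts outside protein-coding genes, the vGluT2 value was -0.45. Suz12 (-0.40 to 0.07) and Eed (-0.23 to 0.09) did not pass in any IP. Jarid2 lay between -0.21 and 0.05, Mtf2 between -0.42 and -0.08, Rbbp4 between 0.02 and 0.26 and Rbbp7 between -0.09 and -0.02. Phf19, at under 1 CPM, ran from -1.14 (SE 0.667) to 0.77 (SE 0.496).

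For no member did the HD effect pass the test of a difference between cell types or regions. By the interaction test, 0 members passed by edgeR or DESeq2 in cerebral vGluT2 against Gad2 (0% of all genes by edgeR), cerebellar vGluT2 against Gad2 (0.107%), cerebellum against cerebrum in Gad2 (0%) and in vGluT2 (0.316%). DESeq2 called 1, 73, 21 and 126 genes of all in that order. By edgeR, 0, 1, 0 and 0 members had an unadjusted p under 0.05. That 1 is Phf19 in the cerebellum (-1.95, SE 0.844, adjusted p = 0.667), and Phf1 there was 0.39 (SE 0.206, adjusted p = 0.743).

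In total RNA of the cerebrum, 9 HD and 9 control libraries of 3 lines, 0 members passed by edgeR or DESeq2 and 0 had an unadjusted p under 0.05 (0.215% of all genes passed by edgeR and 0.8% by DESeq2). The members' median was 0.12, with Suz12 at 0.48 (SE 0.5) the furthest from 0. In total RNA of the SST line, 3 HD and 4 controls, 0 members passed by edgeR or DESeq2, 0 had an unadjusted p under 0.05 (0% of all genes passed by edgeR and 0.101% by DESeq2), and the median was -0.09.

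In cerebellar total RNA 3 members differed between HD and control. Over 7 HD and 7 control libraries, with the line as a covariate, Rbbp4 rose (0.53, SE 0.129, adjusted p = 0.0268), Phf1 rose (0.47, SE 0.163, adjusted p = 0.0478) and Jarid2 fell (-0.81, SE 0.204, adjusted p = 0.027). These 3 of 10 stand beside 25.6% of all genes that passed in the same comparison, a share near that of the members. By edgeR, 8 members had an unadjusted p under 0.05, and by DESeq2 8 passed, as 34.4% of all genes did. Those not called by edgeR were Ezh1 0.34 (adjusted p = 0.0519), Rbbp7 -0.47 (0.0516), Ezh2 -0.75 (0.063), Suz12 -0.81 (0.0847), Mtf2 -0.91 (0.0909), Eed -0.29 (0.262) and Phf19 0.26 (0.44), and the members' median was -0.38 beside 0.00 over all genes.

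**Figure D3:**
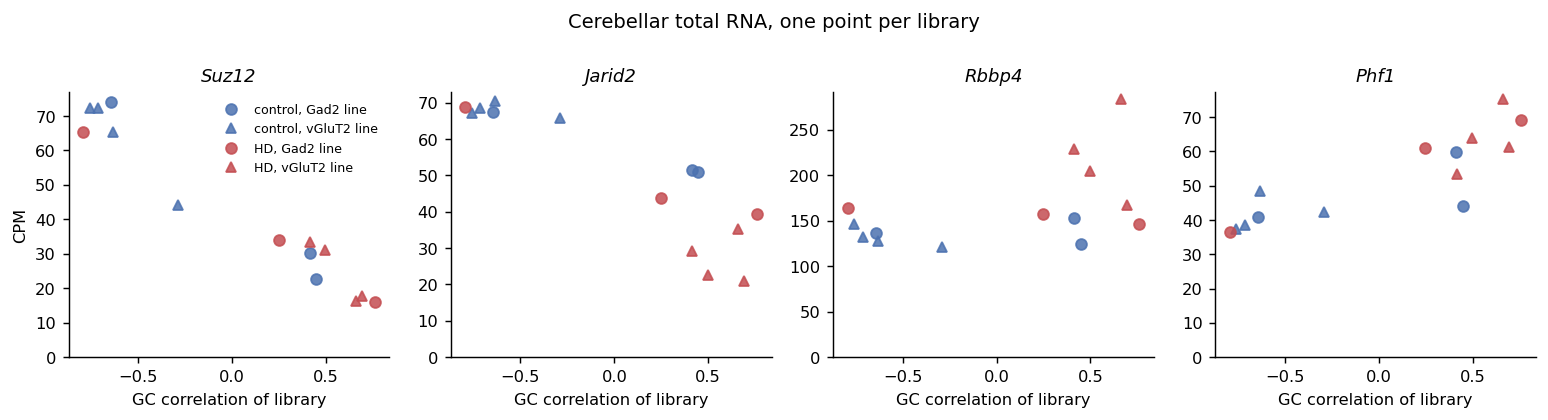
Levels of Suz12, Jarid2, Rbbp4 and Phf1 in every cerebellar total RNA library (CPM), by line and genotype, against the GC correlation of the library. Each symbol is 1 library.

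For Jarid2, Rbbp4 and Phf1 the genotypes separate in the vGluT2 line and overlap in the Gad2 line. Ezh1, Ezh2, Eed, Suz12, Mtf2 and Rbbp7 separate in the vGluT2 line too. Phf19 overlaps there (1.39 to 2.06 CPM in controls, 1.29 to 4.08 in HD). The share of all genes that separate was not counted, but 51.7% of all genes passed edgeR's test in the vGluT2 line alone. Jarid2 in the vGluT2 line was 68.4, 70.4, 65.7 and 67 CPM in controls and 35.2, 22.7, 20.9 and 29.1 in HD, without overlap, and in the Gad2 line 50.9, 67.5 and 51.5 in controls and 43.8, 39.3 and 68.8 in HD, with overlap. Rbbp4 was 132, 128, 121 and 146 in vGluT2 controls and 283, 204, 167 and 229 in HD, without overlap, beside 124, 136 and 153 and then 157, 146 and 164 in the Gad2 line, with overlap. Phf1 was 38.5, 48.4, 42.3 and 37.4 in vGluT2 controls and 75.3, 63.8, 61.2 and 53.3 in HD, without overlap. In the Gad2 line it was 43.9, 40.7 and 59.8 and then 60.8, 69.2 and 36.5, with overlap.

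Fitted alone, the Gad2 line (3 and 3 libraries) gave 0 members and 0 genes of all by edgeR, and the vGluT2 line (4 and 4) 9 members beside 7565 genes (51.7% of all genes): Mtf2 -1.65, Suz12 -1.34, Jarid2 -1.31, Ezh2 -1.30, Rbbp7 -0.72, Eed -0.60, Ezh1 0.51, Phf1 0.63 and Rbbp4 0.77. Whether the lines differ in their HD effect was not tested. With the GC correlation of each library as a covariate, an alternative chosen after seeing the data, 0 members passed by edgeR, beside 1.38% of all genes in place of 25.6%: Jarid2 was -0.44 (adjusted p = 0.138), Rbbp4 0.42 (0.126), Phf1 0.11 (0.661) and Suz12 -0.02. With the replicate number as a block, 0 members and 9 genes of all passed by edgeR. Over the alternatives Jarid2 ran from -1.31 to -0.15 (adjusted p 0.000241 to 1), Rbbp4 from 0.19 to 0.77 (0.0027 to 1) and Phf1 from 0.11 to 0.63 (0.00232 to 1). Markers of several cell types differed too. Of 6 Purkinje cell markers 4 fell, with a summed level of 4570 to 5370 CPM in vGluT2-line controls and 2350 to 2880 in HD (3730 to 5090 and 2660 to 4270 in the Gad2 line), Itpr1 the most abundant. Of 6 microglia markers 3 rose, from 78.6 to 92.3 CPM in vGluT2-line controls to 126 to 138 in HD (82.9 to 95.9 and 91.1 to 97.1 in the Gad2 line), Csf1r the most abundant. No gene of these 2 lists had a mean under 1 CPM in any of the 4 groups. Other summed levels separate the genotypes of the vGluT2 line too, among them those of astrocyte markers (2580 to 2980 CPM in controls and 1860 to 2390 in HD, Slc1a3 the most abundant), vGluT2-neuron markers (701 to 847 and 1210 to 1410, Calb2), vGluT1-neuron markers (480 to 734 and 1110 to 1310, Slc17a7) and dividing-cell markers (47.8 to 57.3 and 61.8 to 80.1, Pcna, 4 of 7 under 1 CPM). In the Gad2 line the vGluT2-neuron sums also separate (674 to 814 and 951 to 1090), as do those of SST-neuron markers (215 to 308 and 148 to 173, Nos1 the most abundant, 1 gene under 1 CPM), which overlap in the vGluT2 line (204 to 235 and 184 to 221). Of the other lists named here, these overlap in the Gad2 line (2280 to 2890 and 2020 to 2530 for astrocytes, 794 to 858 and 643 to 987 for vGluT1 neurons, 52.8 to 66.2 and 54.5 to 60.1 for dividing cells). Oligodendrocyte marker sums separate the genotypes in both lines (Mbp the most abundant). They were 4580 to 5700 CPM in vGluT2-line controls and 3460 to 4400 in HD, and 3780 to 4600 and 3070 to 3290 in the Gad2 line. Sums of GABAergic (765 to 960 and 602 to 740), PV-neuron (1460 to 1790 and 1900 to 2400) and striatal projection neuron markers (317 to 360 and 392 to 449) separate in the vGluT2 line and overlap in the Gad2 line. The part of any list in the members' values was not tested.

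Most single libraries of the cerebellar total RNA set matter to its calls. Jarid2 and Rbbp4 did not pass without control Gad2 replicate 2 (adjusted p = 0.0503 and 0.0501), control vGluT2 replicate 1 (0.0624 and 0.0624), 2 (0.0616 and 0.0619), 3 (0.0516 and 0.0516) or 4 (0.0597 and 0.0595), HD Gad2 replicate 2 (0.0604 and 0.0574), or HD vGluT2 replicate 2 (0.0642 and 0.0623), 3 (0.0637 and 0.0578) or 4 (0.0633 and 0.0624). Phf1 did not pass without any 1 of these 9 (in the same order 0.0909, 0.0995, 0.0792, 0.0755, 0.102, 0.112, 0.0879, 0.0903 and 0.0736), nor without HD Gad2 replicate 1 (0.0717) or HD vGluT2 replicate 1 (0.0865). The members called were 8 without control Gad2 replicate 1, 7 without replicate 3 and 9 without HD Gad2 replicate 3, 2 without HD Gad2 replicate 1 or HD vGluT2 replicate 1, and 0 without any 1 of the other 9, while the count over all genes ran from 92 to 7456.

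Partners of PRC2 were measured in the same comparisons. Aebp2, the partner of Jarid2 in PRC2.2, was higher in the cerebellar vGluT2 IP than in cerebellar Gad2 (0.52, SE 0.0824) and cerebral vGluT2 (0.63, SE 0.0742). The demethylases of the same lysine, Kdm6a and Kdm6b, were higher in both comparisons (Kdm6a 1.48 and 1.74, Kdm6b 0.85 and 1.66). Between the cerebellar cell types, 14 of 20 PRC1 subunits, the complex that reads the PRC2 mark, were higher in vGluT2 neurons and 2 lower (median 0.61), as were 12 and 1 of 14 subunits of the COMPASS complexes, which methylate lysine 4 of histone H3 (0.77), and 10 and 5 of 19 subunits of NuRD, SIN3 and CAF-1, complexes that also hold Rbbp4 or Rbbp7 (0.34). Between regions in vGluT2 neurons these counts were 11 and 2 (median 0.46), 11 and 0 by both tools (0.73), and 9 and 4 (0.16). Over all genes tested the medians were 0.00 and -0.01, with 34.5% higher and 34.8% lower between the cell types and 35.3% and 37.2% between regions. Epop, a partner of PRC2.1, was lower in the cerebellum, at 84.6 CPM in cerebral and 1.21 CPM in cerebellar vGluT2 neurons (-6.23, SE 0.231).

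Aebp2, Kdm6a and Kdm6b did not pass in any comparison of HD with control by edgeR, and DESeq2 called both demethylases in cerebellar total RNA. Among PRC1 subunits Cbx8 (1.29, SE 0.131) and Cbx2 (1.09, SE 0.198) rose in the cerebellar vGluT2 IP. In cerebellar total RNA 5 PRC1 subunits rose and 1 fell, 7 of 19 NuRD, SIN3 and CAF-1 subunits rose and 0 fell by edgeR (9 at an unadjusted p under 0.05, and 7 called by DESeq2), and 2 of 14 COMPASS subunits rose and 3 fell, beside 25.6% of all genes that passed there. The counts called, 6, 7 and 5 in that order, were 2, 0 and 0 with the GC correlation as a covariate, 1, 0 and 0 with the replicate block and 0 in the Gad2 line alone. Without any 1 of the 9 libraries that end the call of Jarid2 (control Gad2 replicate 2, control vGluT2 replicates 1 to 4, HD Gad2 replicate 2 and HD vGluT2 replicates 2 to 4), 2 or 3 PRC1 subunits passed and 0 of the other 2 lists. They were 10, 10 and 8 without HD Gad2 replicate 3, 5, 4 and 4 without HD Gad2 replicate 1, and 5, 2 and 2 without HD vGluT2 replicate 1.

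Over all IP and total RNA libraries, the genes whose log2 level runs most like that of Ezh1, of 13356 compared, are Agap1 (Pearson r = 0.87), Inpp5k (0.87) and Sart3 (0.86). For Ezh2 they are Baz2b (0.92), Alms1 (0.91) and Unc13c (0.90). The points share lines, regions and preparation, and no test was made.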

How the data were processed

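The deposited table holds 1 estimated count per gene and library, which the authors made with Salmon on STAR alignments of stranded poly(A) paired reads to GRCm38.p6, with 92 spike-in sequences added; the supplement names nf-core/rnaseq 3.0 with its defaults, and the versions of STAR and Salmon and the annotation release are not stated. Of the values, 8.57% are not whole, and they were rounded. Genes were matched to GENCODE M21 (55141 of 55401), and spike-ins (at most 4.45% of a library) were set aside. Library totals run from 21905221 to 107753586.

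Tests used edgeR 4.0.16 (TMM, glmQLFit, glmQLFTest) in R 4.3.3 on protein-coding genes that average above 10 counts, with Benjamini-Hochberg adjustment over all genes tested and a threshold of 0.05; DESeq2 1.42.0 was run as an alternative. The SE is the absolute log2 fold change over the square root of F. HD was compared with control inside each IP, in cerebral total RNA (9 and 9 libraries, line as a covariate), in cerebellar total RNA (7 and 7, line as a covariate) and in SST-line total RNA by itself. IP was compared with total RNA of the same line and region, cell types and regions with each other (genotype as a covariate), and HD effects by interaction. The regional and cell type comparisons reuse the same IP libraries, and each IP comparison with total RNA reuses the libraries of the HD comparisons. Python 3.11.15, numpy 2.4.6, pandas 2.3.3, scipy 1.17.1 and matplotlib 3.10.9 made the summaries and figures.

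The members and the gene lists were chosen with earlier results of these data known. All 10 members are reported in every comparison. Of the partner lists, counts are given, and Aebp2, Kdm6a, Kdm6b, and a few called genes of large log2 fold change are named. The fitting code was tested on simulated data. Alternatives changed the tool, the normalization, the filter, the gene types, the libraries, blocks and covariates, and left out each library in turn.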

Additional observations from a re-analysis of the deposited data

Results flagged for a closer look

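In 9 of 150 groups 1 library lies apart from the others by Dixon's ratio, and chance alone would mark about 1 in 20. Ezh1 is low in control PV IP replicate 3 (65.1 CPM, others 72.1 to 75.9) and high in HD vGluT2 cerebellar total RNA replicate 1 (135.0, others 87.7 to 89.1). Ezh2 is high in HD SST IP replicate 2 (4.7, others 2.23 to 2.58) and in control SST total RNA replicate 4 (1.08, others 0.635 to 0.69). Suz12 is low in control vGluT2 cerebral IP replicate 1 (14.7, others 32.8 to 40.7). Mtf2 is low in control PV IP replicate 6 (7.9, others 16.7 to 19.7), where Phf19 is high (0.752, others 0.295 to 0.395), and high in control vGluT2 cerebellar IP replicate 2 (61.1, others 33.3 to 40.5). Rbbp4 is high in control SST total RNA replicate 1 (193.0, others 139 to 142).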

How the results depend on the processing

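Over all comparisons, 2030 of 2115 member values under other settings and 4322 of 4446 with 1 library left out stayed on the same side of the threshold. Of the rest, 36 and 77 lost the call, 48 and 47 gained one, and 1 turned direction: Ezh2 in the cerebral Gad2 IP against total RNA of all lines (0.56 in place of -0.01), where 8 members passed in place of 4. Among values called in neither fit, 79 and 224 changed sign. No member passed in HD against control in any IP, in cerebral or in SST-line total RNA under any alternative.

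In cerebellar total RNA of HD against control, 3 members passed. DESeq2 gave 8, the vGluT2 line alone 9, and the Gad2 line alone and the GC correlation as a covariate (both chosen after seeing the data) 0 each; with 1 library left out the count ran from 0 to 9. The replicate block gave 0 members there. The labels tie HD and control libraries by number alone. The study describes its controls as littermates, and same-numbered mice of the cerebral Gad2 IP carry adjacent codes. In none of these comparisons was the correlation of deviations over 0.1 in every same-numbered pair. Nor was every control library most like the HD library of its number, though the 3 pairs of the Gad2 line in cerebral total RNA were. The call of Phf1 was also lost with DESeq2 size factors (0.46, adjusted p = 0.0536), without TMM (0.42, 0.0826), without a filter (0.45, 0.0616) and with Xist as a covariate (0.44, 0.0538; range over the alternatives 0.00232 to 1). By comparison, in the order cerebral Gad2, PV, SST, cerebral vGluT2, cerebellar Gad2, cerebellar vGluT2, cerebral total, cerebellar total and SST-line total RNA, the replicate block called 9, 0, 1, 0, 0, 109, 17, 9 and 3 genes of all, beside 4, 6, 0, 0, 2, 282, 32, 3704 and 0 without it, and DESeq2 75, 42, 2, 25, 22, 665, 119, 4977 and 15. With 1 library left out and no block, edgeR called 3 to 20, 0 to 4, 0 to 1, 0 to 1, 0 to 3, 154 to 275, 8 to 49, 92 to 7456 and 0 to 2. For the interactions DESeq2 called 1, 73, 21 and 126 genes beside 0, 15, 0 and 45.

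Cerebral vGluT2 against Gad2 IP gave 1 member in control mice only and 1 to 2 with a library left out, in place of 2. PV against SST IP gave 5 members without TMM, 0 in control mice only (2635 genes of all in place of 5630) and 1 to 3 with a library left out, in place of 2. Between regions the Gad2 IP gave 4 to 6 members under other settings and 4 to 7 with a library left out, in place of 4, and the vGluT2 IP 7 to 9 under both, in place of 7. Against total RNA of all lines the cerebral Gad2 IP differed in 10180 genes in place of 6770.

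The log2 ratio of Rbbp4 to Rbbp7 over the IP libraries was -1.13 with median transcript lengths and -1.26 with the longest protein-coding transcript (the latter chosen after seeing the data), in place of -1.87. Bulk RNA does not separate cell number from level per cell, and protein and histone marks were not measured in these libraries. Groups of 3 to 6 libraries can leave differences unseen, and not only small ones, in IP as in total RNA.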

Other observations

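Lcor and Epop, 2 partners of PRC2.1, were depleted from ribosome-bound RNA in several IPs. Lcor was lower than in total RNA in the cerebral Gad2 (-1.72, SE 0.419), cerebellar Gad2 (-2.02, SE 0.511) and cerebellar vGluT2 (-1.22, SE 0.321) IPs, and Epop in the cerebral Gad2 (-1.61, SE 0.206), PV (-1.60, SE 0.151), SST (-0.99, SE 0.201) and cerebellar vGluT2 (-2.11, SE 0.259) IPs. Epop was higher than in total RNA in the cerebral vGluT2 IP (0.52, SE 0.149). Hdac2, the deacetylase that NuRD and SIN3 share, was higher in all 6 IPs than in total RNA, by 0.90 (SE 0.155, cerebellar Gad2) to 1.68 (SE 0.178, PV).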
